A study of Mus musculus with 6 samples.

Results

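Chemokine and cytokine ligands are the proteins through which a tumour cell calls and instructs leukocytes, and the mRNA of 10 such genes is described here in Met-1 cells: Cxcl1, Cxcl2, Cxcl5, Csf3, Ccl20, Cxcl16, Cx3cl1, Csf1, Il24 and Il6. They are 10 of the 43548 genes in the table and were chosen by name as ligands of neutrophils, macrophages and lymphocytes, partly picked for a change with doxycycline (Dox) in these same libraries. Their difference between the groups is therefore given as a description, with no test. Met-1 is a mouse mammary carcinoma line of the FVB/nJ strain, derived from a late tumour of the MMTV-PyMT transgenic model. Met-1 TripZ-200c cells carry the lentiviral pTripZ vector, which expresses the miR-200c precursor together with red fluorescent protein when Dox is present. The line is a single clone, sorted for cells that stayed dark without Dox and then for intermediate fluorescence with it. In the vehicle group, 3 plates of these cells received diH2O, and in the Dox group 3 plates received 1 µg/mL Dox, in both cases for 48 h. No empty-vector library was analysed here, so an effect of Dox itself and an effect of miR-200c cannot be told apart. The libraries are plates of 1 clone, so p-values measure only the spread between these samples.

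Chemokines are small secreted proteins that guide leukocytes along a gradient through G protein-coupled receptors. The CXC ligands with a Glu-Leu-Arg motif, among them Cxcl1, Cxcl2 and Cxcl5, attract neutrophils through Cxcr2, and Csf3 (granulocyte colony-stimulating factor) drives the production and release of the same cells. Ccl20 attracts lymphocytes and dendritic cells that carry Ccr6, Cxcl16 and Cx3cl1 are made as membrane proteins and shed, and Csf1 sustains macrophages. Many of these genes are switched on by NF-κB, and many of their mRNAs are short-lived because of AU-rich elements in the 3′ UTR.

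Levels are FPKM, fragments scaled to transcript length and library size, which allows levels of different genes to be compared. How many reads underlie a value is not known. From the spacing of the lowest values, with vehicle library 1 set to 1.0, relative depth was 0.917 and 1.30 in vehicle libraries 2 and 3 and 0.972, 1.49 and 1.11 in Dox libraries 1, 2 and 3. Of 37 mitochondrial genes in the table, 37 are listed at 0 in all 6 libraries, so a 0 may be a failed estimate. Zeb1 and Zeb2, transcription factors that miR-200c represses, checked the labels. Zeb2 fell from 29.3 ± 1.43 to 8.29 ± 0.661 FPKM (SD, n = 3 each; log2 fold change -1.81, SE 0.0795, adjusted p = 4.48e-05 by limma). Zeb1 fell by 0.98 on the log2 scale (SE 0.0739, adjusted p = 0.000362 by limma). Mir200c itself is listed at 0 in all 6 libraries. In every gene below whose adjusted p was under 0.05, the 3 Dox libraries lay on 1 side of the 3 vehicle libraries.

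The mature miRNA that Dox induces in these cells is shown with its seed, bases 2 to 8, in capitals, from RefSeq (GRCm38.p6, chr6:124718324-124718346, minus strand).
miR-200c-3p: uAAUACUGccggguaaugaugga
The 7 letters that pair with this seed, CAGTATT, were searched on the mRNA strand in the longest annotated 3′ UTR of each gene. They occur in 0 of the 10 ligand 3′ UTRs, against 13.3% of the 3′ UTRs of 21028 protein-coding genes, and 5 times each in those of Zeb1 and Zeb2. The ligand 3′ UTRs range from 381 bases in Il24 to 2111 bases in Csf1, around the median of 960 bases over all genes. The absence of these letters says nothing of sites elsewhere in the mRNA. All sequences printed or searched here are those of the reference strain, and differences in the FVB cells were not examined.

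Of the 10 ligands, 9 were above 0 in at least 1 library and 7 averaged 1 FPKM or more across libraries. In 6 of these 7 the groups did not overlap, 5 higher and 1 lower with Dox. Il24, among the 5, reached 1 FPKM only through its Dox values (mean 0.140 FPKM with vehicle and 3.23 FPKM with Dox). Over the 12875 genes tested that had 6 values, 35.0% did not overlap, and nothing is read from the ligands' count because the contrast helped to choose them.

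**Figure D1:**
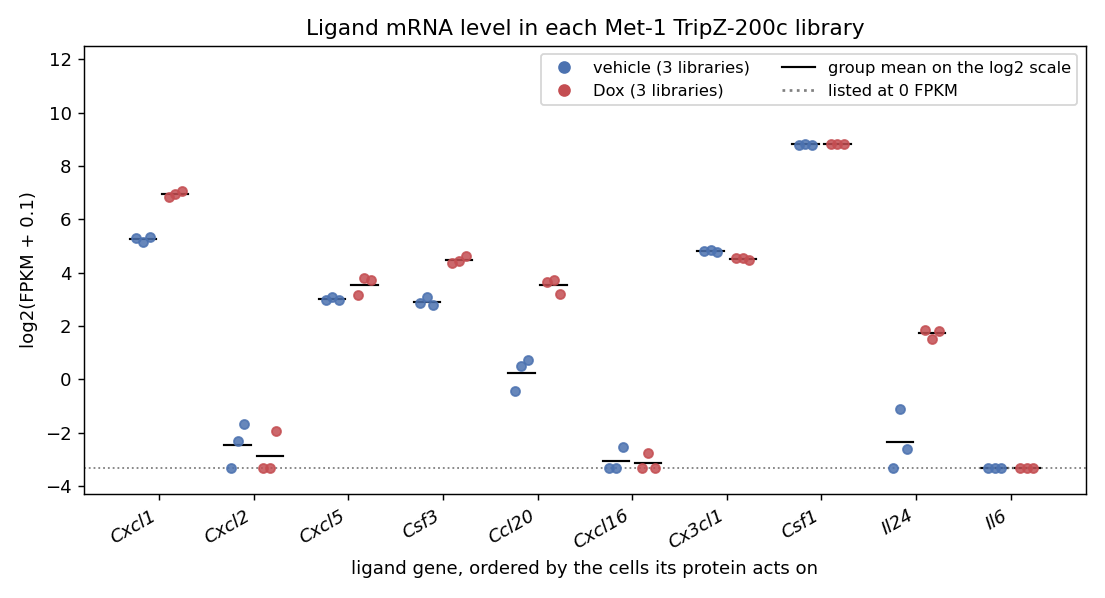
mRNA level of the 10 ligands in each of the 6 libraries, on the log2(FPKM + 0.1) scale, with the group mean as a bar and the level of a gene listed at 0 as a dotted line. Ccl20 lay between 0.632 and 1.54 FPKM with vehicle and between 9.09 and 13.2 FPKM with Dox, whereas Csf1 lay between 445 and 458 FPKM in all 6 libraries.

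Cxcl1 (ENSMUSG00000029380), which attracts neutrophils, was the most abundant chemokine among the 10. It was at 39.5, 35.4 and 40.1 FPKM in vehicle libraries 1, 2 and 3 and at 114, 124 and 134 FPKM in Dox libraries 1, 2 and 3. Every Dox library was far above every vehicle library, and the spread within a group was small beside the gap. The mean went from 38.3 ± 2.53 to 124 ± 10.0 FPKM (SD, n = 3 each), a ratio of 3.25 and a log2 fold change of 1.70 (SE 0.0738).

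Cxcl5 (ENSMUSG00000029371), a further Cxcr2 ligand, was at 7.86, 8.42 and 7.86 FPKM with vehicle and at 8.77, 13.9 and 13.0 FPKM with Dox. The groups did not overlap, but Dox library 1 was only just above the highest vehicle library. The log2 fold change was 0.53 (SE 0.17), and it was 0.73 without Dox library 1 and 0.41 without Dox library 2. Cxcl2 (ENSMUSG00000058427), the closest relative of Cxcl1 among the 10, was at 0, 0.0998 and 0.211 FPKM with vehicle and at 0, 0 and 0.164 FPKM with Dox. After scaling by relative depth, the values above 0 were 1.0, 3.0 and 1.99 times the lowest of them, which is the spacing of very few reads. The groups overlapped, and a small difference in Cxcl2 could have been missed at this depth.

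These 3 genes lie in a cluster of CXC chemokine genes on chromosome 5 (GRCm38), with Cxcl5 from 90759360 to 90761624, Cxcl1 from 90891241 to 90893115 and Cxcl2 from 90903871 to 90905938, all on the plus strand. Cxcl1 and Cxcl2 are neighbours, 10756 bp apart, and yet with Dox the mean of Cxcl1 was 124 FPKM while Cxcl2 was no higher than 0.164 FPKM. Ppbp, the gene 6894 bp to the right of Cxcl5, was at 0.980, 0.678 and 0.410 FPKM with vehicle and at 0.724, 1.02 and 0.876 FPKM with Dox. Its groups overlapped. Cxcl3, which shares Cxcr2 with the others, was above 0 only in vehicle library 2 (0.316 FPKM) and Dox library 3 (0.0868 FPKM). Pf4 and Cxcl15 are listed at 0 in all libraries, as are Cxcl9 and Cxcl13 farther along the chromosome. Cxcl11 did not exceed 0.0583 FPKM.

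**Figure D2:**
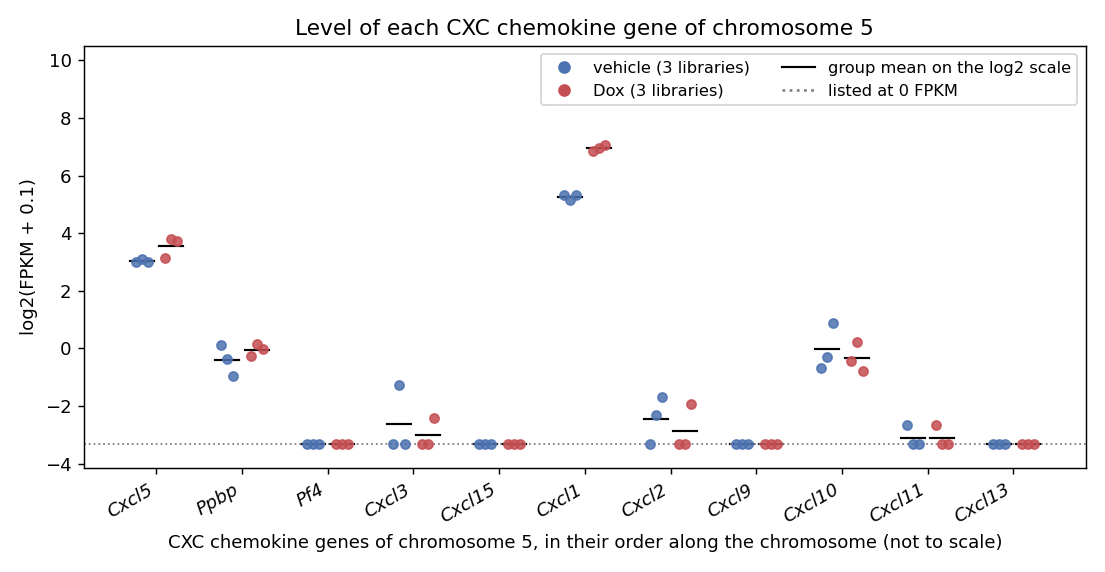
Level of the CXC chemokine genes of chromosome 5 in each library, on the log2(FPKM + 0.1) scale, in their order along the chromosome. Cxcl1 and Cxcl5 stand above the rest, and Cxcl2, next to Cxcl1, is near 0 in both groups.

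Csf3 (ENSMUSG00000038067; chromosome 11, 98701263 to 98703629, plus strand) encodes the growth factor of the neutrophil lineage. Its FPKM was 7.27, 8.31 and 6.84 with vehicle and 20.3, 21.8 and 24.4 with Dox. The groups were well apart, with no library between them. The ratio of the means was 2.97, close to the 3.25 of Cxcl1, and the log2 fold change was 1.56 (SE 0.103).

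Ccl20 (ENSMUSG00000026166; chromosome 1, 83116766 to 83119167, plus strand) encodes the ligand of Ccr6. It was at 0.632, 1.30 and 1.54 FPKM with vehicle and at 12.4, 13.2 and 9.09 FPKM with Dox. It thus went from near the bottom of the genes tested (percentile 1.92 with vehicle) to a level like that of Cxcl5. The ratio of the means was 9.96 and the log2 fold change 3.27 (SE 0.318), between 2.55 and 3.38 over the alternatives with all libraries.

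Cxcl16 (ENSMUSG00000018920), a membrane-bound chemokine for T cells with Cxcr6, was above 0 only in vehicle library 3 (0.0715 FPKM) and Dox library 2 (0.0494 FPKM). It overlaps Zmynd15 on the other strand of chromosome 11, which itself did not exceed 0.0274 FPKM. Whether the authors' estimates used the strand of the reads is not given in the sources used here. Cx3cl1 (ENSMUSG00000031778; chromosome 8, 94772009 to 94782427, plus strand), the membrane-bound ligand that holds and attracts monocytes and NK cells, was the 1 ligand lower with Dox among those whose groups did not overlap. It was at 27.7, 29.0 and 27.1 FPKM with vehicle and at 23.2, 23.2 and 22.2 FPKM with Dox. The groups did not overlap, and the shift was small, with a ratio of 0.818 and a log2 fold change of -0.29 (SE 0.0531).

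Csf1 (ENSMUSG00000014599; chromosome 3, 107741048 to 107760469, minus strand), the growth factor of macrophages, was the most abundant of the 10. It was at 445, 457 and 446 FPKM with vehicle and at 458, 456 and 452 FPKM with Dox. The groups overlapped, and the log2 fold change was 0.02 (SE 0.0247). Its vehicle level exceeded that of 98.2% of the genes tested. Il34, the other ligand of the Csf1 receptor, was at 42.8, 47.0 and 42.4 FPKM with vehicle and at 46.3, 46.2 and 29.7 FPKM with Dox, where Dox library 3 stood apart from the rest.

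Il24 (ENSMUSG00000026420; chromosome 1, 130882074 to 130887454, minus strand), a cytokine of the interleukin-10 family that acts on epithelial cells, was at 0, 0.358 and 0.0628 FPKM with vehicle and at 3.55, 2.75 and 3.40 FPKM with Dox. It was low in every vehicle library and at least 2.75 FPKM in every Dox library. After scaling by relative depth, the value in vehicle library 2 was 4.02 times that in vehicle library 3, and the Dox values were 42.2, 50.2 and 46.2 times it. The log2 fold change of 4.09 (SE 0.62) therefore rests on few reads with vehicle, and it ranged from 1.90 with a pseudocount of 1 to 5.64 with a pseudocount of 0.01. In the interleukin-10 cluster that holds Il24, Il19 did not exceed 0.192 FPKM, and Il20 and Il10 are listed at 0 in all libraries, which may be failed estimates. Il6 (ENSMUSG00000025746), the inflammatory cytokine, is listed at 0 in all 6 libraries.

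In the order of vehicle levels, Csf1 stood first, followed by Cxcl1, Cx3cl1, Cxcl5, Csf3, Ccl20 and Il24. Cxcl5 and Csf3 overlapped in that order, with 7.86 to 8.42 and 6.84 to 8.31 FPKM. With Dox, Csf3 (20.3 to 24.4 FPKM) overlapped Cx3cl1 (22.2 to 23.2 FPKM), and Ccl20 (9.09 to 13.2 FPKM) overlapped Cxcl5 (8.77 to 13.9 FPKM). Csf1 and Cxcl1 kept the first places in both groups. No ligand shares more than 5.61% of its longest transcript with another gene at 95% identity over at least 50 bases, a share reached by Cxcl2 with Cxcl3.

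Promoters are shown because Cxcl1, Cxcl2 and Ccl20 are classical NF-κB genes whose levels differ widely here. RefSeq promoter windows around the start site were at hand for 6 of the 10 ligands (Ccl20, Cxcl1, Cxcl2, Cx3cl1, Csf1 and Il6). Capitals mark the NF-κB consensus, searched on both strands.
Ccl20 promoter (chr1:83116516-83116815, plus strand): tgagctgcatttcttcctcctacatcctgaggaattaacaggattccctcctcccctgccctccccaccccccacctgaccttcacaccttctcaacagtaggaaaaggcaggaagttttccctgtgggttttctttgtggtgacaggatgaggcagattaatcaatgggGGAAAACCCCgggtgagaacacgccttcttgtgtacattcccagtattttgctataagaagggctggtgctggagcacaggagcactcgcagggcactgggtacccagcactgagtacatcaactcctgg
Cxcl1 promoter (chr5:90890995-90891294, plus strand): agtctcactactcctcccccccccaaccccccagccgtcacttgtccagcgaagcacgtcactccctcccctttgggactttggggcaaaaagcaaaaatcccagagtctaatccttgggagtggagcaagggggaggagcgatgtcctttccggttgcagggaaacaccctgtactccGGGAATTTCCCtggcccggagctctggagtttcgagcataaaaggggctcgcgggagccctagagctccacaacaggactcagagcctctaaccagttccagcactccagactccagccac
Cxcl2 promoter (chr5:90903649-90903948, plus strand): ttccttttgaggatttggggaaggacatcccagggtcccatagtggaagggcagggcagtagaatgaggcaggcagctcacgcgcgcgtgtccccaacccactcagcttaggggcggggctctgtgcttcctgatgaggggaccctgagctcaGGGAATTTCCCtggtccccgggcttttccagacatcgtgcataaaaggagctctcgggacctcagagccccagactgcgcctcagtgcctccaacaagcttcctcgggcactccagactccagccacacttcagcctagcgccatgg
The consensus is present in 5 of the 6 ligand promoters and absent from the window of Cx3cl1, against 4.51% of the 32851 promoters in the table. In Cxcl1 and Cxcl2 it overlaps itself on both strands, from position -71 and -97 relative to the start site, in the same run of capitals. The 3 other matches are shown for comparison with 10 bases on each side.
Ccl20 match at -80: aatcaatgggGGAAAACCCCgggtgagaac
Csf1 match at -154: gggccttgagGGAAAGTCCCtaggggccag
Il6 match at -44: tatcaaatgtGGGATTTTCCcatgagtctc
Thus Cxcl1 at 114 to 134 FPKM with Dox, Cxcl2 at 0 to 0.164 FPKM, Csf1 at 452 to 458 FPKM and Il6 listed at 0 each have a match in this window. The E-box CACCTG, the letters that ZEB proteins bind, was also searched on both strands and does not overlap the consensus. It occurs in 1 of the 6 ligand promoters, that of Ccl20 at -178, against 20.2% of all promoters. A match of letters is a description and does not show that a factor was bound.

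AU-rich elements, through which RNA-binding proteins shorten the life of cytokine mRNAs, were searched in the same 3′ UTRs on the mRNA strand. The pentamer ATTTA occurs at least 1 time in 10 of 10 ligands, against 65.2% of all genes, and longer 3′ UTRs hold more of them. Cxcl2 has 11, Il6 10, Ccl20 9, Cxcl1 7, Csf3 6, Cxcl5 5, Il24 4, Csf1 4, Cxcl16 2 and Cx3cl1 1. Among genes whose 3′ UTR length is within 10%, as many pentamers as in Cxcl1, Cxcl2 and Ccl20 were found in 0.644%, 0.647% and 0.863%, and as many as in Csf3 and Il24 in 1.59% and 1.65%. For Il6 this share was 3.1%, for Cxcl5 14.1%, for Csf1 48.8%, for Cxcl16 62.0% and for Cx3cl1 90.9%. The ligands dense in pentamers were thus both some with a large difference between the groups (Ccl20, Cxcl1, Csf3, Il24) and some at or near 0 (Cxcl2, Il6). The longer nonamer TTATTTATT, which contains the pentamer, occurs in 3 of the 10 ligands, against 7.66% of all genes. It is found 4 times in Cxcl2, 2 times in Cxcl1 and 1 time in Cx3cl1, and examples are shown with the nonamer in capitals (GENCODE transcripts, GRCm38, plus strand).
Cxcl1 first nonamer (chr5:90892615-90892643): atttatgtatTTATTTATTccacaaagtg
Cxcl1 second nonamer (chr5:90892908-90892936): agaatgtcagTTATTTATTgaaagtcgtc
Cxcl2 first nonamer (chr5:90905316-90905344): gagagttcacTTATTTATTtatctatgta
Cx3cl1 nonamer (chr8:94780850-94780878): cagtgaacaaTTATTTATTggattcccag

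**Figure D3:**
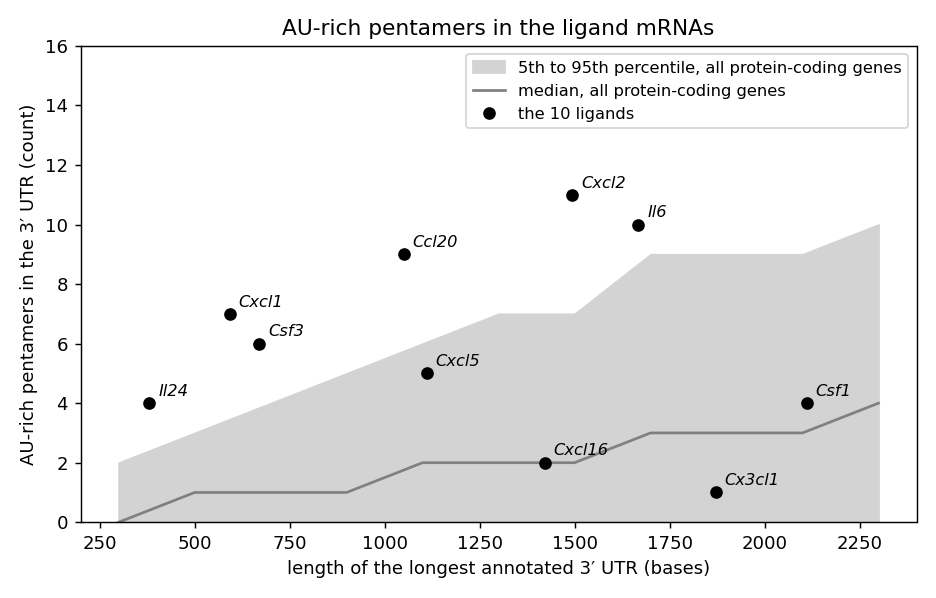
Number of ATTTA pentamers in the longest annotated 3′ UTR of each of the 10 ligands against the length of that 3′ UTR in bases, with the median and the 5th to 95th percentile of all protein-coding genes in grey. Cxcl2, Il6, Ccl20, Cxcl1, Csf3 and Il24 lie above the grey band, and Cxcl5, Csf1, Cxcl16 and Cx3cl1 lie within it.

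The ligands were set beside the rest of the chemokine and cytokine genes. Across all 12879 genes tested by limma, 15.0% had an adjusted p under 0.05, 7.06% higher and 7.97% lower with Dox. These were 1935 genes, and between 1069 and 1384 passed with 1 library left out. The median log2 fold change over all genes tested was 0.0039. Of 34 other chemokine ligands, 13 were above 0 and 3 could be tested (Ccl25, Ccl27a and Cxcl14). By limma, 0 of the 3 passed the threshold, 0 at an unadjusted p under 0.05 and 0 by the unmoderated model. Ccl5, a T cell attractant below the filter on low values, was at 0.731, 0.534 and 0.754 FPKM with vehicle and at 0.768, 0.809 and 1.11 FPKM with Dox. Apart from the 10 ligands, no chemokine gene of the list had a mean above 8.13 FPKM, the level of Cxcl14.

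Of 67 other cytokine ligands, 62 were in the table, 40 above 0 and 15 tested. Of the 15, 5 passed, 2 higher and 3 lower with Dox, against 15.0% passing over all genes tested. Their median log2 fold change was -0.040. Several of them belong to the interleukin-6 family, whose members signal through the shared chain gp130. Lif, a regulator of stem cells and the acute phase, was at 20.5, 22.8 and 23.1 FPKM with vehicle and at 38.2, 36.7 and 43.9 FPKM with Dox (log2 fold change 0.83, SE 0.0841, adjusted p = 0.00113 by limma). Ctf1 (cardiotrophin) rose from 9.26 ± 0.574 to 17.5 ± 2.92 FPKM (SD, n = 3 each; log2 fold change 0.90, adjusted p = 0.00439 by limma). Clcf1, a ligand of the same family that supports B cells and neurons, fell from 75.4 ± 4.83 to 56.9 ± 4.39 FPKM (SD, n = 3 each; log2 fold change -0.41, SE 0.0717, adjusted p = 0.0112 by limma). It lost the call in the unmoderated model, with adjusted p = 0.0668, and kept it in the other 13 of 14 alternatives. Kitl (stem cell factor), the growth factor of mast cells, fell from 51.1 ± 2.31 to 29.2 ± 1.41 FPKM (SD, n = 3 each; log2 fold change -0.81, SE 0.0571, adjusted p = 0.000292 by limma).

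**Figure D4:**
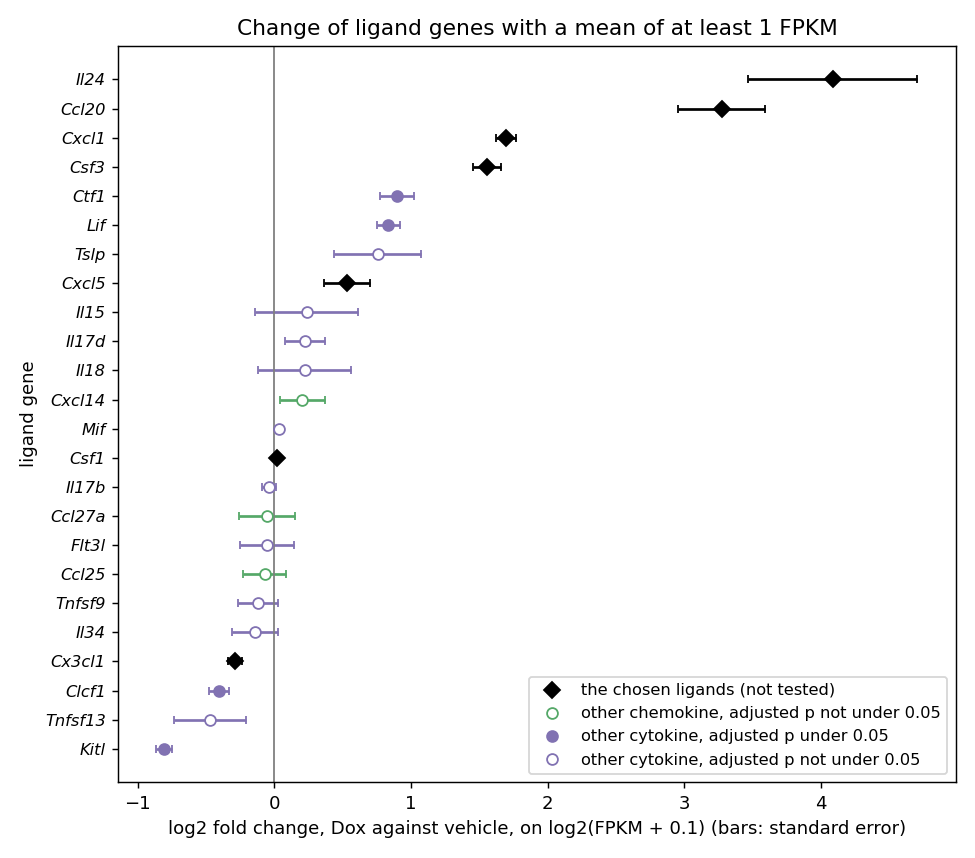
Log2 fold change, Dox against vehicle, with its standard error for the 7 chosen ligands and most of the other chemokine and cytokine ligands with a mean of at least 1 FPKM. Filled circles mark other ligands with an adjusted p under 0.05, and the chosen ligands, which were not tested, span from Cx3cl1 at -0.29 to Il24 at 4.09.

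Among ligands below the filter, Il23a, a chain of interleukin-23 singled out after its values were seen, was at 0.473, 0.147 and 0.0518 FPKM with vehicle and at 2.44, 1.27 and 1.22 FPKM with Dox. Its groups did not overlap. In the limma model without the filter its adjusted p was 0.0503 (log2 fold change 2.58, SE 0.575). It reached the filter only with 1 vehicle library left out, through its Dox values. A pass among those fits (lowest adjusted p = 0.0264 by limma) is therefore no support. The groups of Tnfsf15 (log2 fold change 1.52), Tnfsf13b (-1.13) and Tnfsf18 (-0.891), also below the filter, did not overlap either. None of them passed by limma without the filter (adjusted p = 0.128, 0.0913 and 0.0728). Csf2, Cxcl10 and Ccl2 were measured by other methods elsewhere in the study. Their mRNA was low or listed at 0 in these libraries. Csf2, the granulocyte-macrophage growth factor, was at 0.132, 0 and 0.102 FPKM with vehicle and at 0.137, 0 and 0.120 FPKM with Dox. Cxcl10, which attracts T cells through Cxcr3, was at 0.527, 0.708 and 1.73 FPKM with vehicle and at 0.638, 1.06 and 0.476 FPKM with Dox. In both genes the groups overlapped. Ccl2, the monocyte chemoattractant, is listed at 0 in all 6 libraries.

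Of 12 receptor chains for the 10 ligands, 9 were above 0 in at least 1 library. Cxcr1, Ccr6 and Csf3r are listed at 0 in all libraries, which may be failed estimates. Cxcr2 and Cxcr6 were above 0 in 1 library each, at 0.0272 and 0.0308 FPKM. The Cx3cl1 receptor Cx3cr1 did not exceed 0.217 FPKM and the Csf1 receptor Csf1r 0.128 FPKM. Of the chains that bind Il24, Il20ra reached at most 0.179 FPKM and Il22ra1 0.0327 FPKM, whereas Il20rb was at 5.45, 3.90 and 4.54 FPKM with vehicle and at 5.93, 5.66 and 6.19 FPKM with Dox (adjusted p = 0.146 by limma). The receptor chains of Il6 were expressed and passed the threshold in opposite directions. Thus 2 of 3 chains tested passed, against 15.0% over all genes tested. Il6ra, the specific chain, was at 20.6, 20.7 and 21.7 FPKM with vehicle and at 15.6, 14.3 and 14.5 FPKM with Dox (log2 fold change -0.50, adjusted p = 0.00297 by limma). Il6st, which encodes gp130, rose from 86.4 ± 1.37 to 98.8 ± 0.791 FPKM (SD, n = 3 each; log2 fold change 0.19, adjusted p = 0.0103 by limma). Of 5 atypical chemokine receptors, which bind chemokines without G protein signalling, only Ackr3 was tested. Its FPKM was 2.46, 1.41 and 1.32 with vehicle and 1.15, 1.13 and 1.57 with Dox, and the groups overlapped.

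Cx3cl1, Cxcl16 and the membrane form of Csf1 are released by the proteases Adam10 and Adam17. Adam10 was at 103 ± 6.45 FPKM with vehicle and 98.4 ± 1.77 FPKM with Dox, and Adam17 at 33.4 ± 0.233 and 32.9 ± 0.456 FPKM (SD, n = 3 each; adjusted p = 0.489 and 0.801 by limma). Rhbdf2 (iRhom2), a partner that Adam17 needs for maturation, was at 13.2, 13.9 and 13.5 FPKM with vehicle and at 25.7, 27.9 and 26.8 FPKM with Dox. All Dox libraries were above all vehicle libraries (log2 fold change 0.98, SE 0.0591, adjusted p = 0.000147 by limma). Its relative Rhbdf1 (iRhom1) went from 53.9 ± 4.64 to 43.3 ± 2.55 FPKM (SD, n = 3 each; log2 fold change -0.31, adjusted p = 0.0329 by limma), a call made in 7 of 14 alternatives. Without vehicle library 2, vehicle library 3, Dox library 2 or Dox library 3 the adjusted p of Rhbdf1 was between 0.0743 and 0.105.

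Such ligand genes are commonly induced through the receptors of interleukin-1, interleukin-17, TNF and microbial products. Of 12 such receptors and adaptors tested, 4 passed, all lower with Dox, against 15.0% passing and 7.97% lower over all genes tested. Their median log2 fold change was -0.08. Il17rc, a chain of the interleukin-17 receptor, was at 87.3, 90.3 and 83.2 FPKM with vehicle and at 43.0, 60.3 and 57.8 FPKM with Dox (log2 fold change -0.71, SE 0.123, adjusted p = 0.0104 by limma, and 0.0753 in the unmoderated model). Il1rap, the shared chain of the interleukin-1 receptors, had a log2 fold change of -0.34 (SE 0.0609, adjusted p = 0.0115 by limma). Tlr4, the receptor of bacterial lipopolysaccharide, and Tnfrsf1a, the main TNF receptor, had log2 fold changes of -0.33 and -0.13 (adjusted p = 0.0372 and 0.0431 by limma). Their calls were made in 6 and 7 of 14 alternatives. Without vehicle library 2, vehicle library 3 or any Dox library the adjusted p of Tlr4 was between 0.0943 and 0.108, and without any 1 library that of Tnfrsf1a was between 0.0733 and 0.13. The lowest and highest adjusted p over all alternatives were 0.0117 and 0.108 for Tlr4 and 0.0259 and 0.13 for Tnfrsf1a.

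Of 14 transcription factors known to act on ligand genes, 4 passed, 3 higher and 1 lower with Dox, against 15.0% over all genes tested. Their median log2 fold change was 0.10. Relb and Nfkb2, which pair in the non-canonical arm of NF-κB, were higher with Dox. Relb was at 14.4, 14.9 and 13.9 FPKM with vehicle and at 24.2, 25.8 and 25.0 FPKM with Dox (log2 fold change 0.79, SE 0.0586, adjusted p = 0.000338 by limma). Nfkb2 was at 30.5, 30.8 and 28.2 FPKM with vehicle and at 47.4, 48.7 and 47.5 FPKM with Dox (log2 fold change 0.68, SE 0.0516, adjusted p = 0.000371 by limma). In both genes the groups were well apart. Rela and Nfkb1, of the canonical arm, did not pass, with log2 fold changes of 0.11 and 0.20 (adjusted p = 0.193 and 0.0561 by limma). Nfkb1 passed in 1 of 14 alternatives, a minimum mean of 5 FPKM, with adjusted p = 0.0494 in a range up to 0.15. Cebpa, a factor of differentiation, fell from 12.6 ± 1.75 to 4.51 ± 0.556 FPKM (SD, n = 3 each; log2 fold change -1.46, adjusted p = 0.000846 by limma). Its relatives Cebpb and Cebpd, inducers of acute phase genes, were at 173 and 183 FPKM with vehicle and at 177 and 195 FPKM with Dox, and neither passed. Atf4, the factor of the amino acid stress response, had a log2 fold change of 0.16 (SE 0.026, adjusted p = 0.00829 by limma).

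Of 13 genes for RNA-binding proteins that act on cytokine mRNA, 3 passed, 2 higher and 1 lower with Dox. Over all genes tested 15.0% passed, and the median log2 fold change of the 13 was 0.07. Zfp36 (tristetraprolin), which binds AU-rich elements and promotes decay, went from 12.6 ± 0.655 to 17.6 ± 1.86 FPKM (SD, n = 3 each; log2 fold change 0.48, adjusted p = 0.0167 by limma). Its call was made in 9 of 14 alternatives, and without vehicle library 1, vehicle library 2, Dox library 1 or Dox library 3 its adjusted p was between 0.0505 and 0.0632. Zfp36l1, of the same family, had a log2 fold change of 0.27 (SE 0.0437, adjusted p = 0.00877 by limma). Hnrnpd (AUF1), another protein that binds AU-rich elements, fell from 395 ± 3.25 to 339 ± 12.4 FPKM (SD, n = 3 each; log2 fold change -0.22, adjusted p = 0.00567 by limma). Zfp36l2 did not pass (log2 fold change -0.15, adjusted p = 0.0571 by limma) other than without vehicle library 1, where its adjusted p was 0.0271 in a range up to 0.155. Elavl1 (HuR), which stabilises such mRNAs, was at 31.1 ± 0.311 and 32.7 ± 1.23 FPKM (SD, n = 3 each) and did not pass.

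**Figure D5:**
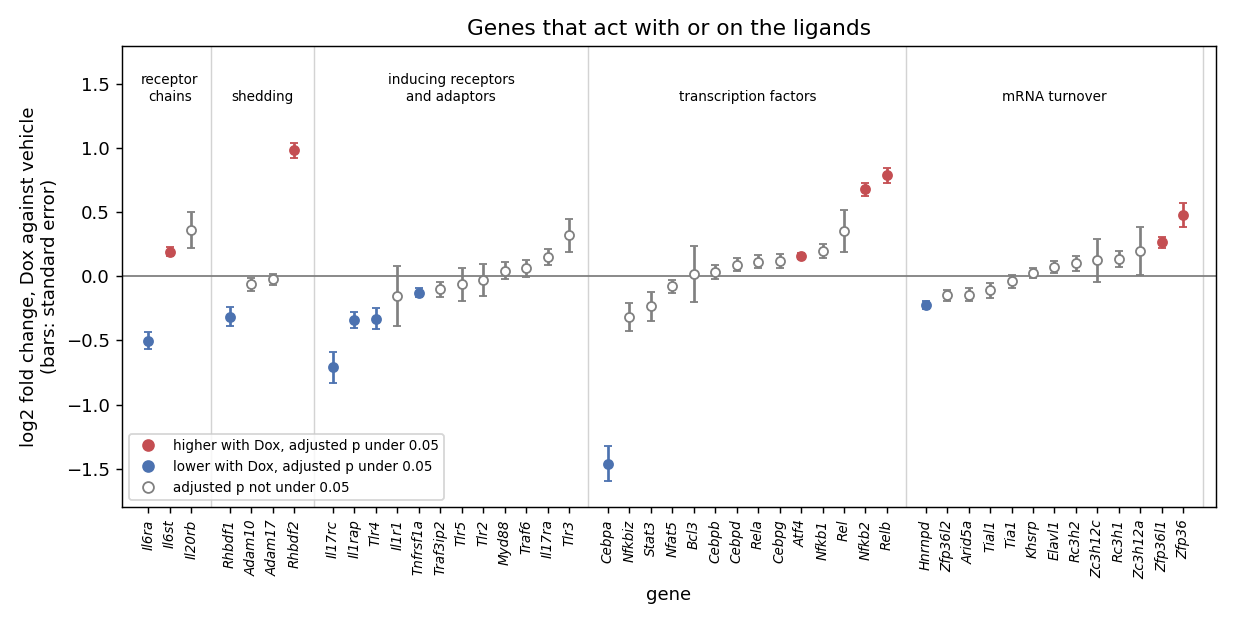
Log2 fold change, Dox against vehicle, with its standard error for the genes tested that receive, shed, induce, transcribe or degrade the ligands or their mRNA. Rhbdf2, Relb and Nfkb2 lie highest (0.98, 0.79 and 0.68) and Cebpa lowest (-1.46).

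The genes beside the 10 ligands were looked up to 200 kb away. Their nearest protein-coding neighbours, outside the 10, are 18 genes, of which 5 are listed at 0 in all libraries and 8 were tested. Of the 8, 3 passed, all higher with Dox, against 15.0% passing and 7.06% higher over all genes tested. Nothing about neighbours is read from so few genes. Rassf6, 118703 bp to the left of Cxcl5, was at 4.34, 4.74 and 3.57 FPKM with vehicle and at 9.97, 9.04 and 8.61 FPKM with Dox (log2 fold change 1.11, SE 0.133, adjusted p = 0.0023 by limma). Psmd3, a proteasome subunit gene 5284 bp to the left of Csf3, had a log2 fold change of 0.20 (SE 0.0285, adjusted p = 0.0051 by limma), against 1.56 for Csf3. Med24, 962 bp to the right of Csf3, did not pass (log2 fold change -0.27, adjusted p = 0.211 by limma) other than without vehicle library 3, where its adjusted p was 0.0498. Med11, 256 bp to the left of Cxcl16, had a log2 fold change of 0.33 (SE 0.0698, adjusted p = 0.0225 by limma, passing in 9 of 14 alternatives). Without vehicle library 1, vehicle library 2, Dox library 1 or Dox library 3 the adjusted p of Med11 was between 0.0553 and 0.0762. Daw1, to the right of Ccl20, and Ccl22, to the left of Cx3cl1, are listed at 0, and Krtap28-13 on the other side of Ccl20 reached at most 0.228 FPKM. Ccl17, beside Cx3cl1, reached at most 0.400 FPKM. Mthfd2l, beside Cxcl2, was at 18.1 ± 1.55 and 18.8 ± 0.776 FPKM, and Ahcyl1, beside Csf1, at 132 ± 3.32 and 144 ± 6.61 FPKM (SD, n = 3 each), and neither passed.

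The genes most like Il24 and Ccl20, the ligands with the largest fold changes, were found by the root mean square difference of their 6 log2(FPKM + 0.1) values, each gene centred on its own mean. For Ccl20 they were Macc1 (0.28), Lypd3 (0.332) and the integrin gene Itgb4 (0.373). Macc1 was at 0.790, 1.60 and 1.76 FPKM with vehicle and at 10.1, 9.66 and 8.76 FPKM with Dox, which follows Ccl20 in being lowest in vehicle library 1 and Dox library 3. For Il24 they were Epcam (0.588), Ccl20 itself (0.696) and Itgb4 (0.742). Itgb4 was at 3.48, 4.45 and 3.48 FPKM with vehicle and at 32.8, 35.0 and 32.2 FPKM with Dox. The likeness is over 6 libraries of 2 groups and rests mainly on the difference between the groups. Because the genes were picked by these same 6 values, a shared order of libraries adds no support to it.

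Marker genes of cell types were read beside these values. Of 9 epithelial markers, 8 were above 0, and their summed FPKM was 98.1, 91.6 and 92.5 with vehicle and 369.9, 400.4 and 407 with Dox, nearly all from Krt18. Epcam was at 0.0844, 0.137 and 0.161 FPKM with vehicle and at 4.31, 3.88 and 3.98 FPKM with Dox, and Cdh1 at 0.0776, 0.0559 and 0.0419 FPKM with vehicle and at 0.554, 0.692 and 1.24 FPKM with Dox. Both epithelial markers were thus near 0 in the vehicle group of a carcinoma line, and Krt5 is listed at 0. Of 16 leukocyte markers, 10 were above 0, with summed FPKM of 34.7, 33.3 and 31.0 with vehicle and 36.6, 38.0 and 40.2 with Dox, led by Cd14 at a mean of 25.3 FPKM. Cd14 had a log2 fold change of 0.44 (SE 0.0861, adjusted p = 0.0171 by limma), passing in 8 of 14 alternatives, and without vehicle library 2, vehicle library 3, Dox library 2 or Dox library 3 its adjusted p was between 0.056 and 0.0633. The other 2 leukocyte markers tested did not pass and had the opposite sign, S100a8 with a log2 fold change of -0.44 (mean 8.13 FPKM, adjusted p = 0.19 by limma) and Lyz2 with -0.56 (mean 1.56 FPKM, adjusted p = 0.383 by limma). Cd74, below the filter, was at 0.0768, 0 and 0.177 FPKM with vehicle and at 0.753, 0.876 and 0.480 FPKM with Dox (adjusted p = 0.0407 by limma without the filter). The defining leukocyte marker Ptprc did not exceed 0.161 FPKM, and Adgre1, Cd3e, Cd3g, S100a9 and Tyrobp are listed at 0. Of 4 fibroblast markers, 3 were above 0, with summed FPKM of 19.7, 18.6 and 19.5 with vehicle and 16.8, 16.1 and 14.6 with Dox. Pdgfra, the most abundant, had a log2 fold change of -0.27 (SE 0.0681, adjusted p = 0.041 by limma) and passed in 6 of 14 alternatives. Its adjusted p was between 0.0927 and 0.118 without any 1 vehicle library, Dox library 2 or Dox library 3, and Lum is listed at 0. Of 4 endothelial markers, Cdh5 led at a mean of 4.30 FPKM, did not pass, and Pecam1 did not exceed 0.0848 FPKM. In bulk mRNA, a change in the share of cells and a change in the mRNA of each cell cannot be told apart, and the part of these markers in the ligand values was not tested.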

How the data were processed

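Sequencing covered the mRNA of 3 vehicle and 3 Dox libraries, grouped and numbered by the sample labels. The authors deposited FPKM per gene and library, estimated with Cufflinks after mapping with gSNAP, for which the sources name GRCm38.p6 and an FVB/NJ assembly. The deposited group means, fold changes, p-values and q-values of the authors were not used, and 0 columns of per-sample values were left unused. Repeated identifiers were reduced to the entry of highest mean (63 dropped), and 6 placeholder values were set to missing. The 12879 genes averaging 1 FPKM or more were fitted by limma 3.58.1 (R 4.3.3; a trend, 1 group term) to log2(FPKM + 0.1), with Benjamini-Hochberg adjustment over all of them and a threshold of 0.05. Fold changes on this scale understate the change of low genes. For ligands that the filter removed, the model was run without it. On simulated data with 200 genes changed by 1 log2 unit, the fit recovered 75% of them, and 3.85% of its calls were unchanged genes. A gene that did not pass may therefore have changed. The 10 ligands and all gene lists were chosen with earlier results of these data known. Genes named are the 10 ligands, most list genes that passed, receptors, shedding genes and some ligands below the filter. Also named are 3 ligands the study measured by other methods, chromosomal neighbours, cluster genes and the 3 most similar genes of 2 ligands. Positions, 3′ UTRs and transcripts are those of GENCODE (GRCm38), and promoters and the miRNA those of RefSeq (GRCm38.p6), so sequence matches are those of the reference strain and FVB differences were not considered. Transcripts were compared with BLAST 2.17.0. Python 3.11.15, pandas 2.3.3, numpy 2.4.6 and matplotlib 3.10.9 were used. Alternatives were other pseudocounts, filters and scalings, an unmoderated model, a replicate block and the omission of each library.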

Additional observations from a re-analysis of the deposited data

How the results depend on the processing

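Over all genes tested, 1935 passed, and 1284 in the unmoderated model and 1069 to 1384 with 1 library left out. Of the other cytokine ligands, 5 passed, and 3 in the unmoderated model, which gives each gene its own variance. Of the inducing receptors and adaptors, 4 passed, and 2 in the unmoderated model, 2 with the replicate block and 2 to 3 with 1 library left out. Libraries with the same number share only a number. The correlations of their deviations from the group means, across genes, were 0.0287, 0.0359 and -0.00759, so pairing was not shown. With the replicate block 1337 genes passed, of which 1269 also passed without it. Among the values of single genes under the alternatives, 1186 kept their side of the threshold or stayed within the spread between libraries. Another 49 no longer passed, 3 newly passed and 4 moved by more than that spread. The 1186 include genes that never passed and changed sign, such as Ccl25 with log2 fold changes from -0.211 to 0.04. No call turned its direction. FPKM without counts hides the depth, so for Cxcl2, Cxcl16 and other genes near 0 a small difference could have been missed, and a gene listed at 0 cannot be called absent.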
